A study of Homo sapiens with 6 samples.

Results

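The enrichment of mRNAs with CELF1 was compared between SK-Mel-103 and UACC-62, both established human melanoma cell lines, of which SK-Mel-103 carries mutant NRAS and UACC-62 mutant BRAF. The genes examined were those with at least 100 input reads in every sample, counted over exonic bins of 20 bp that were listed in all 3 IP samples. These were 4120 genes of the 8317 with such a bin, and of the 16294 genes with an exonic bin in any sample, and 4022 of the 4120 were protein-coding. Each gene has one value per sample, the log2 of its IP reads over its input reads, with each count divided by its total in that sample. A value of 0 therefore stands for equal shares of a gene in IP and input. The line difference is the value in SK-Mel-103 minus that in each UACC-62 replicate, and it is read beside the difference between the UACC-62 replicates.

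CELF1, also called CUGBP1, is an RNA-binding protein that recognizes GU-rich elements (GREs), mostly in 3′ UTRs, and can direct the decay or change the translation of the mRNAs that carry them. It also takes part in splicing in the nucleus. RNA immunoprecipitation recovers the transcripts held by the protein together with some unbound RNA, so that abundant transcripts without binding sites appear in the IP at a lower share than in the input.

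Lysates of formaldehyde-fixed cells were sonicated, CELF1 was pulled down with an antibody, and the recovered RNA was sequenced beside input RNA after removal of ribosomal RNA. No treatment of the cells is named in the labels. The series comprises 6 samples, namely an IP and an input of SK-Mel-103 replicate 1 and of UACC-62 replicates 1 and 3, and the labels call the UACC-62 samples biological duplicates. SK-Mel-103 thus had no replicate. The lists held between 10958459 (SK-Mel-103) and 14436573 (UACC-62 replicate 3) IP reads and between 8453517 (SK-Mel-103) and 10161917 (UACC-62 replicate 1) input reads, and the genes examined held 58.0 to 61.9% of the IP and 64.7 to 69.1% of the input reads. Since only bins that had passed the peak caller were listed, every value is conditional on that. A median gene had a counting error of 0.13 (log2, SE) in its line difference against UACC-62 replicate 1, which covers the sampling of reads only. The genes just above the input minimum, with at least 100 but fewer than 110 reads in their lowest sample, numbered 119 and had a median line difference of 0.44, against 0.36 for the 127 genes just below it, with 90 to 99 reads.

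The labelled cell type was checked on melanocyte genes in the input. Of 11 such markers, 4 were present in SK-Mel-103 and 8 in each UACC-62 replicate, and their summed share was 111 per 1000000 reads in SK-Mel-103 against 2113 and 1734 in UACC-62. MITF, the master regulator of the melanocyte lineage, had an input of 18 reads in SK-Mel-103, but of 6036 and 5000 in UACC-62, whereas TYRP1, PMEL and KIT had none in any sample. Input reads were known only for listed bins, so that a marker without reads was not shown to be absent. SOX10, a neural crest factor, had 864, 2115 and 1080 input reads. Markers of keratinocytes, fibroblasts, and immune or endothelial cells summed to between 0 and 28.3 per 1000000 reads in each sample, and no gene of these lists reached the input minimum.

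Over the 4120 genes, IP over input covered a narrower range in SK-Mel-103 than in UACC-62. The SD over genes was 1.06 for SK-Mel-103, and 1.39 and 1.33 for replicates 1 and 3 of UACC-62, and from the 5th to the 95th percentile the values spanned 3.31, 4.48 and 4.22. SK-Mel-103 had the lowest SD of the 3 samples under all 14 ways of computing the unscaled values, some of which leave it unchanged by construction, with a ratio to the UACC-62 mean between 0.70 and 0.83. The median value was −0.68 in SK-Mel-103, −1.20 in UACC-62 replicate 1 and −0.98 in replicate 3. The order of the genes was largely shared. Pearson's r across genes, which are not independent replicates, was 0.943 between SK-Mel-103 and either UACC-62 replicate and 0.960 between the replicates.

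**Figure D1:**
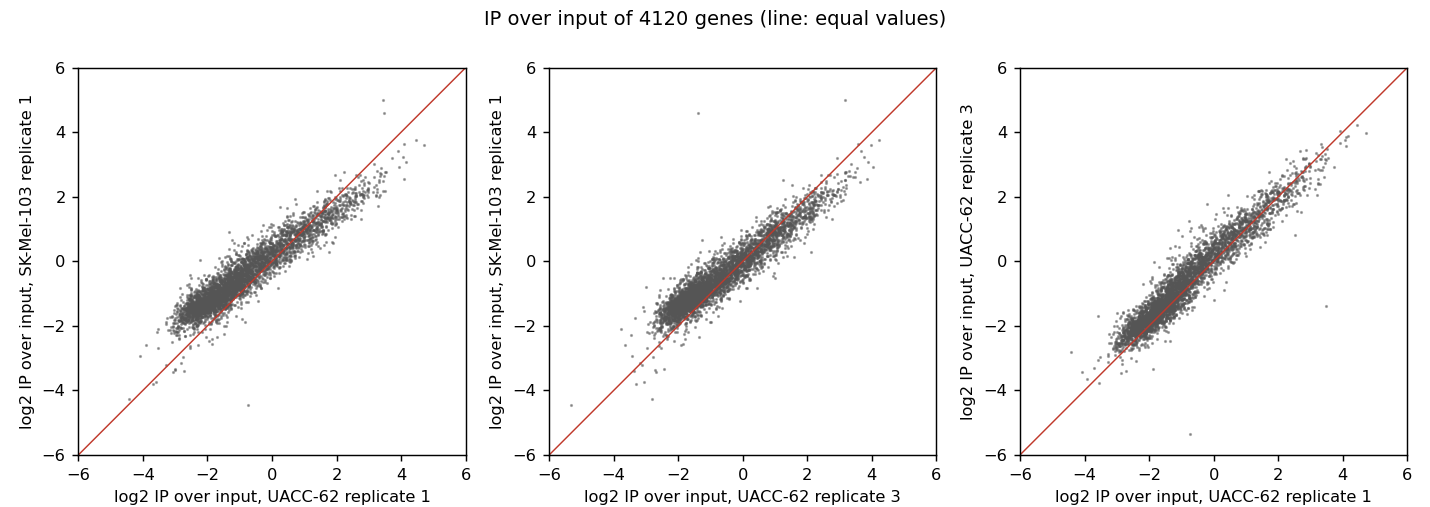
Log2 IP over input of the 4120 genes (points) in SK-Mel-103 against each UACC-62 replicate (left and middle) and in UACC-62 replicate 3 against replicate 1 (right). Points at the low end lie above the line of equal values in the left and middle panels and points at the high end below it, whereas the right panel follows the line with a median offset of 0.22.

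The median line difference was 0.49 against UACC-62 replicate 1 and 0.25 against replicate 3, and the replicates themselves were 0.22 apart. The SD over genes was 0.53 and 0.48 for the line differences and 0.39 for the replicate difference. SK-Mel-103 lay above both replicates for 2689 genes (65.3%), below both for 603 (14.6%) and between them for 828 (20.1%). For 2087 genes (50.7%) the smaller of the 2 line differences exceeded the difference between the replicates. These medians depended on the scaling. With TMM factors in place of the totals the line differences had medians of 0.08 and 0.05, a shift of the same order as the difference itself, and with each sample centred on its median they were −0.03 and −0.04. For the gene lists below, the median with each sample centred on its median over all genes is therefore also given, and is called the relative median.

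Genes poorly recovered with CELF1 in UACC-62 were recovered better in SK-Mel-103, and the best recovered ones less well. To keep the class and the difference apart, genes were divided into 10 classes of equal size by their value in one UACC-62 replicate, and the difference was taken against the other. In the lowest class by replicate 1, SK-Mel-103 minus replicate 3 had a median of 0.63, and 391 of 412 genes were above 0. In the highest class the median was −0.35, and 85 of 412 genes were above 0. With the replicates exchanged, the medians were 0.90 and −0.34. The medians declined at every step from the lowest to the highest class in both cases. The share of bins without any input read, 9.7% in SK-Mel-103 and 15.9 and 29.2% in UACC-62, also differed between samples, as did the number of IP reads per input read in the lists (1.30, 1.12 and 1.62), and their part in the narrower range was not tested. With 1 sample of SK-Mel-103, line and library cannot be told apart.

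**Figure D2:**
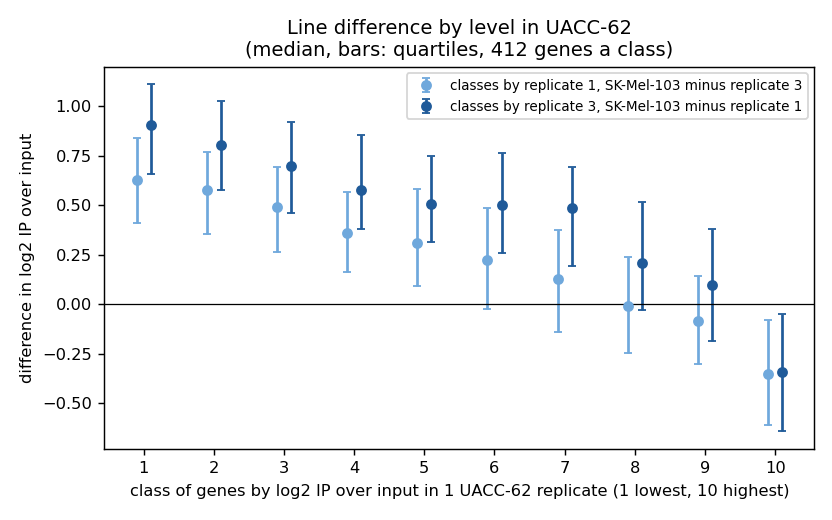
Line difference in log2 IP over input (points: medians, bars: quartiles) by class of genes, ranked by the value in one UACC-62 replicate and compared with the other replicate, 412 genes a class. The medians decline from 0.63 to −0.35 and from 0.90 to −0.34 between the lowest and the highest class.

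At least 2-fold differences against both UACC-62 replicates were seen in 97 genes with a higher value in SK-Mel-103 (2.35% of 4120) and in 9 with a lower value (0.218%). By comparison, 90 genes (2.18%) differed at least 2-fold between the UACC-62 replicates. Against single replicates, 565 genes (13.7%) passed 2-fold for replicate 1 and 185 (4.49%) for replicate 3. The test of edgeR for a line difference in IP over input, on the 6 columns of counts with the sample as block, called 98 genes (2.38%) at an adjusted p-value under 0.05, with 94 higher (2.28%) and 4 lower (0.0971%) in SK-Mel-103. In this test the single SK-Mel-103 sample is assumed to vary like the UACC-62 samples. At an unadjusted p-value under 0.05 there were 849 genes (20.6%), and 68 genes (1.65%) were both called and past 2-fold in both differences. The split by direction also depended on the scaling, with 50 genes higher and 75 lower with TMM factors, and 5 and 16 with centred medians. No gene was called with totals taken over the common exonic bins, where 1139 genes had an unadjusted p-value under 0.05, and DESeq2 called a single gene higher and none lower. The values per sample, rather than the number of calls, are therefore described.

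Among protein-coding genes, the largest values of the smaller line difference belonged to NDUFA6 and NDUFB6, which encode subunits of complex I of the respiratory chain. NDUFA6 (ENSG00000184983, chr22:42481530-42486888 on the minus strand, GRCh37) had 95, 86 and 81 IP reads and an input of 126, 456 and 400 reads, in the order SK-Mel-103, replicate 1 and replicate 3 of UACC-62, which is kept for all values given in threes below. Its value was −0.78 in SK-Mel-103 and −2.56 and −3.00 in UACC-62, with a mean of −2.78 ± 0.31 in the latter (SD, n = 2). The line differences of 1.78 and 2.22 had counting errors of 0.26 each, and the adjusted p-value of edgeR was 1.83e-05. NDUFB6 (chr9:32552997-32573160 on the minus strand) stood at −0.53 in SK-Mel-103 and at −2.30 and −2.26 in UACC-62. In both genes SK-Mel-103 lay far outside the UACC-62 pair. The share of the input was lower in SK-Mel-103 by 1.59 and 0.77 (log2), respectively, and that of the IP higher by 0.41 and 0.97. The difference thus lay mostly in the denominator in NDUFA6, and partly in NDUFB6.

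The remaining genes at the higher end were of varied function. ENO2, the neuronal enolase of glycolysis, had values of −0.51, −2.52 and −2.15, counted over 2 bins only. MRPS33, of the mitochondrial ribosome, had −0.88, −2.51 and −2.58, and PCCB, a subunit of propionyl-CoA carboxylase, had −1.12, −2.84 and −2.58. These 3 genes were all low in both UACC-62 replicates, and the adjusted p-values of edgeR were 1.83e-05, 0.00024 and 0.0027. SNX18, a sorting nexin of endocytosis, had −0.09, −1.55 and −1.62, and FZD6, a Wnt receptor, had 0.10, −1.31 and −1.39. MYO10, an unconventional myosin of filopodia, had 0.002, −1.55 and −1.38. AHR, the aryl hydrocarbon receptor, had −0.56, −2.06 and −1.93. In MYO10 and AHR the IP share was itself lower in SK-Mel-103, by 1.31 and 1.06 (log2). The input share was lower by more, 2.77 and 2.49. In SNX18, FZD6 and PCCB the IP share differed by only −0.18, −0.09 and 0.10, against −1.68, −1.54 and −1.49 in the input. In ENO2 and MRPS33 both shares differed, by 0.98 and 0.83 in the IP and −0.85 and −0.83 in the input. Input reads in SK-Mel-103 were close to the input minimum in ENO2 (102), PCCB (107), FZD6 (117), SNX18 (130) and MYO10 (131). They numbered 149 in MRPS33, 327 in AHR and 305 in H4C1. H4C1, a replication-dependent histone gene, was the only one of the 10 with a higher input share in SK-Mel-103, and had values of −0.42, −2.53 and −1.78. Reads of histone genes can be shared among near-identical copies, since up to 20 alignments per read were allowed, and H4C1 is uncertain to that extent.

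At the lower end, the values in UACC-62 were mostly well above 0. ASTN2, an astrotactin of neuronal migration, had 5017, 8244 and 6066 IP reads and 3147, 2188 and 860 input reads. Its values were 0.30 in SK-Mel-103 and 1.76 and 2.12 in UACC-62, a line difference of −1.46 and −1.82 with an adjusted p-value of 0.021 (edgeR). SCD5, a stearoyl-CoA desaturase, had 1.33 in SK-Mel-103 and 2.75 and 2.77 in UACC-62, with an adjusted p-value of 0.034 (edgeR). They were the only protein-coding genes of the 10 at this end that the test called. SLC30A7, a zinc transporter of the Golgi, had 0.76, 1.96 and 1.94, and ORC4, of the origin recognition complex, had 0.16, 1.28 and 1.37. MFSD4B, a membrane transporter, had 1.72, 3.29 and 2.83, and INCENP, of the chromosomal passenger complex, had 1.80, 2.83 and 2.90. CFLAR, an inhibitor of caspase-8, was the only gene of the 10 with a negative value in SK-Mel-103, at −0.84 against 0.17 and 0.42. CREBL2, FNBP1L and SHISA9 followed with line differences between −0.98 and −1.11. None of these 8 genes passed the test, with adjusted p-values of edgeR from 0.052 to 0.15, although SK-Mel-103 lay below both replicates in each. The input share of ASTN2, SCD5, ORC4, CFLAR and SHISA9 was higher in SK-Mel-103 by 1.24 to 1.60 (log2), and the IP share differed by −0.27 to 0.28. In MFSD4B, CREBL2 and FNBP1L it was instead the IP share that differed more, by −1.44, −1.58 and −1.26, whereas the input share differed by −0.10, −0.53 and −0.23. SLC30A7 differed in both, by −0.38 in the IP and 0.81 in the input, and INCENP by −0.11 and 0.96.

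**Figure D3:**
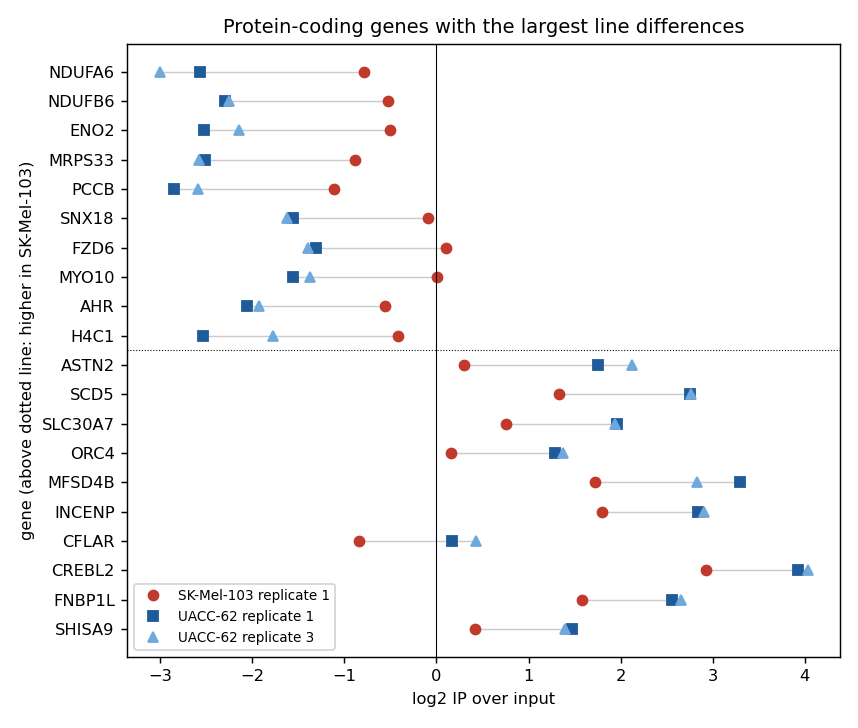
Log2 IP over input in each of the 3 samples (points) for the 10 protein-coding genes with the largest smaller line difference in each direction. The SK-Mel-103 points of the upper 10 genes lie between −1.12 and 0.10 and those of the lower 10 between −0.84 and 2.93.

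The bin with the most reads in its lowest IP sample is shown for the first 4 genes of each end, so that the stretch recovered can be compared. The bins are given 5′ to 3′ on the strand of the transcript as in GRCh37, and capitals mark TGT, the core of CELF1 motifs. At the higher end these are chr22:42482121-42482140 (3′ UTR of NDUFA6, minus strand), chr9:32553881-32553900 (coding region of NDUFB6, minus strand), chr12:7027121-7027140 (coding region of ENO2, plus strand) and chr7:140706061-140706080 (3′ UTR of MRPS33, minus strand).
NDUFA6: ataaactcactatacaatgg
NDUFB6: aaagaatttcctgatcaaca
ENO2: tggtggctctcatgctggca
MRPS33: gttacatTGTggctggtttc
At the lower end they are chr9:119375361-119375380 (3′ UTR of ASTN2, minus strand), chr4:83581161-83581180 (3′ UTR of SCD5, minus strand), chr1:101440801-101440820 (3′ UTR of SLC30A7, plus strand) and chr2:148689621-148689640 (3′ UTR of ORC4, minus strand).
ASTN2: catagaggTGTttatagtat
SCD5: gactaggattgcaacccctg
SLC30A7: ccagtcttctggaaTGTctt
ORC4: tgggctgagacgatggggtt
TGT was present in 5 of the 9 bins examined at the higher end and in 6 of the 10 at the lower end. Of these bins only that of SHISA9, at chr16:13333541-13333560 (3′ UTR of SHISA9, plus strand), held an 11-nt stretch within 2 mismatches of a repeat of TGTT or of TG, the definition of a GRE used here, and it is shown for that reason.
SHISA9: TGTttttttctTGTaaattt
The stretch lies at the start of the bin. The IP reads of these bins were 473, 605 and 525 in ASTN2 and 431, 694 and 394 in SHISA9 for SK-Mel-103 and UACC-62 replicates 1 and 3, against 26, 19 and 21 in NDUFA6.

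Over all genes off the mitochondrial genome, 1650 of 4108 such bins (40.2%) contained TGT on the transcript strand and 69 (1.68%) a GRE. TGT was present in 36 of the bins of the 97 genes at least 2-fold higher in SK-Mel-103 and in 5 of those of the 9 genes lower. In 4 classes of genes from the lowest to the highest line difference the share was 45.0, 40.8, 39.0 and 35.8%. Ranked by the UACC-62 mean value instead, it was 33.9, 36.7, 43.2 and 46.8% from the lowest to the highest class. The UACC-62 value enters both rankings, with opposite sign. Of the bins, 83.2% lay in a 3′ UTR in the class with the highest line difference and 92.7% in that with the lowest.

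Of the 24 gene lists with at least 3 genes kept, nuclear oxidative phosphorylation had the highest median line difference against the UACC-62 mean, followed by the replication-dependent histones, the proteasome and the heat shock proteins. Of the nuclear genes of oxidative phosphorylation, 70 of 80 were kept, and their median difference was 1.07 against UACC-62 replicate 1 and 0.78 against replicate 3, beside 0.49 and 0.25 for all genes. The relative medians were 0.55 and 0.49. SK-Mel-103 lay above both replicates for 67 of the 70 (95.7%, beside 65.3% of all genes) and below both for none, 5 passed 2-fold in both differences (7.14%, beside 2.35%), and edgeR called 8 higher (11.4%, beside 2.28%). The list was poorly recovered in UACC-62, with medians of −2.36 and −2.07. In the lowest and the next class by UACC-62 replicate 1, 94.9 and 97.6% of all genes lay above replicate 3 (medians 0.63 and 0.58). In those by replicate 3, 95.6 and 98.5% lay above replicate 1 (medians 0.90 and 0.80). The share of the list is thus near that of poorly recovered genes, whose shares were taken against 1 replicate only. The range within the list was wide, from NDUFB8, which encodes another complex I subunit and had values of −2.26, −2.45 and −2.43, up to NDUFA6.

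The cytosolic ribosomal proteins, low in UACC-62 as well (medians −2.64 and −2.27), gave a median line difference of 1.01 and 0.59 over 82 genes. Those values are near the lowest classes given above, and the relative medians of the 82 genes were 0.49 and 0.30. Of these genes 78 were above both replicates (95.1%), 6 passed 2-fold (7.32%) and 5 were called (6.10%). RPS16 had −0.52 in SK-Mel-103 and −1.34 and −2.48 in UACC-62, and RPL28 had −3.14, −2.83 and −3.19. The RPS16 values in UACC-62 were farther apart than RPS16 in SK-Mel-103 was from replicate 1. Processed copies of ribosomal protein genes are frequent in the genome, and reads may be shared with them. The proteasome subunits, also low in UACC-62 (medians −2.27 and −2.09), had 0.96 and 0.75 over 38 genes, and relative medians of 0.44 and 0.46. Here 36 genes were above both replicates (94.7%) and 4 past 2-fold (10.5%), whereas the 1 called gene (2.63%) is near the 2.28% of all genes. PSME2, of the proteasome activator, had −1.12, −2.38 and −2.26 and was the called one, whereas PSME3 lay below both replicates with 1.91, 2.58 and 2.42.

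Heat shock proteins and chaperonins had medians of 1.0 and 0.74 over 26 genes and relative medians of 0.48 and 0.44, with 23 above both replicates (88.5%) and none past 2-fold or called. HSPA4 had −1.21, −2.54 and −2.20, while DNAJB1, a co-chaperone, had 1.38, 1.82 and 1.89. Glycolysis had 0.88 and 0.55 over 16 genes and relative medians of 0.36 and 0.25, with 14 above both (87.5%) and ENO2 both past 2-fold and called. LDHB, of lactate metabolism, followed with −1.46, −2.80 and −2.43. Replication-dependent histones had 1.19 and 0.51 over 48 genes and relative medians of 0.67 and 0.21, but here the UACC-62 replicates were 0.70 apart, more than SK-Mel-103 was from replicate 3. Their share was higher in SK-Mel-103 by 2.15 in the IP and by 1.32 in the input (log2 medians), whereas the input share of oxidative phosphorylation was lower by a median of 0.63.

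The 11 mitochondrially encoded genes kept went the other way, with medians of −0.34 and −0.63 and relative medians of −0.86 and −0.93. Of these, 8 lay below both replicates and none above both, beside 14.6 and 65.3% of all genes. MT-ND5 had −2.55 in SK-Mel-103 and −1.87 and −1.84 in UACC-62, and MT-CO2 had −3.23, −3.27 and −3.12. None of the 11 was called or passed 2-fold in both differences. They were poorly recovered in every sample, with medians of −3.23, −3.02 and −2.68, and differed in that from the other lists with low values, which were higher in SK-Mel-103. Reads from nuclear copies of the mitochondrial genome cannot be separated from them. Also near or below 0 were the zinc finger genes named ZNF, with 0.10 and −0.07 over 37 genes, and the kinesins, with 0.19 and −0.01 over 12 genes. Of the ZNF genes, 14 lay above both replicates (37.8%, beside 65.3% of all genes) and 12 below both. Relative to all genes the medians were −0.42 and −0.37 for ZNF and −0.33 and −0.31 for the kinesins. Translation initiation and elongation factors (0.62 and 0.29 over 51 genes) and splicing factors (0.52 and 0.30 over 40 genes) were near the median of all genes, with relative medians of 0.10 and −0.01 and of 0.006 and 0.004. ZNF623 had 2.01, 2.97 and 3.01, and ZNF654 had −0.71, −1.73 and −1.37.

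**Figure D4:**
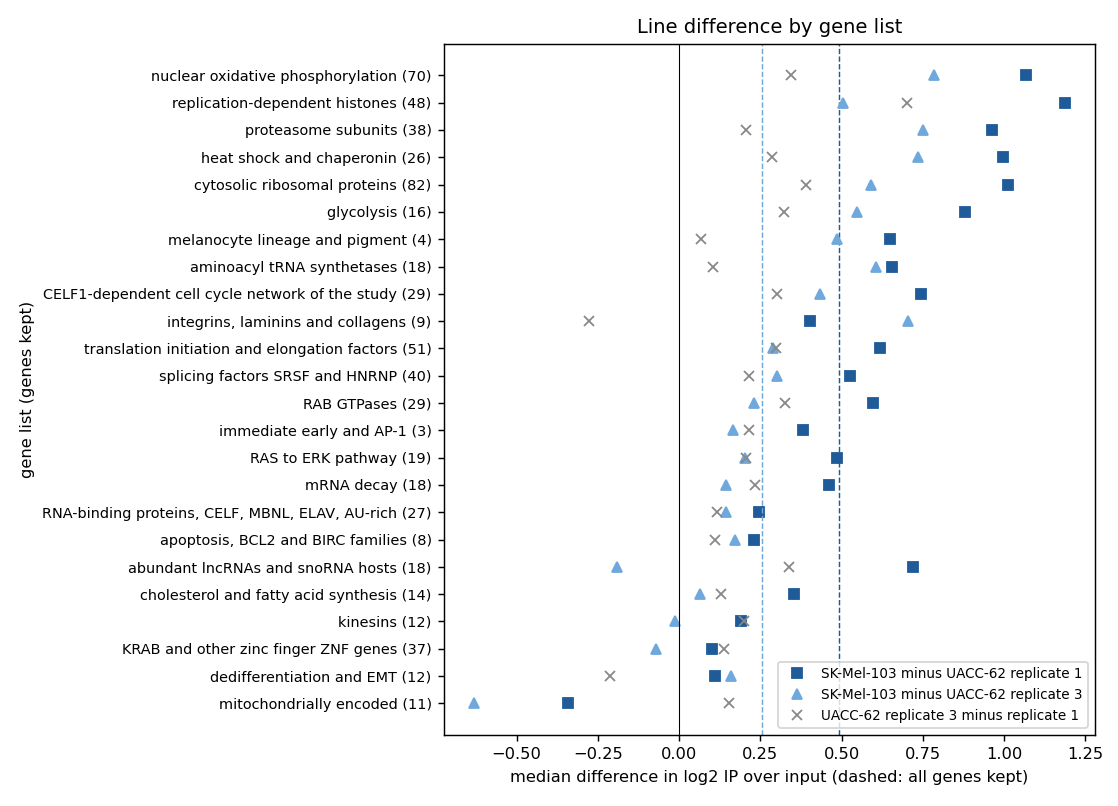
Median difference in log2 IP over input per gene list between SK-Mel-103 and each UACC-62 replicate (squares, triangles) and between the replicates (crosses), with all genes as dashed lines. Oxidative phosphorylation stands at 1.07 and 0.78, above the 0.49 and 0.25 of all genes, and the mitochondrially encoded genes at −0.34 and −0.63.

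When the values of each sample were centred and divided by their SD over genes, so that the narrower range of SK-Mel-103 was set equal to that of UACC-62, many lists came closer to 0. Ribosomal proteins then had medians of 0.12 and 0.03 and heat shock proteins 0.17 and 0.16, in units of the SD. Oxidative phosphorylation kept 0.27 and 0.24, the proteasome 0.20 and 0.23, and the mitochondrially encoded genes −1.16 and −1.12. Cholesterol and fatty acid synthesis had −0.17 and −0.22. The histones, with 0.31 and 0.02, and the integrins, laminins and collagens, with −0.08 and 0.41, depended on the replicate. This scaling was added after the values had been seen.

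The 29 genes kept of the cell cycle network that the study assigned to CELF1 had a median line difference of 0.74 and 0.43, and relative medians of 0.23 and 0.14, with 23 above both replicates (79.3%, beside 65.3% of all genes), 3 below both and 1 called (3.45%, beside 2.28%). The list was poorly recovered in UACC-62, with medians of −1.83 and −1.48. In classes 3 and 4 of all genes by UACC-62 replicate 1, the median difference against replicate 3 was 0.49 and 0.36. In classes 3 and 4 by replicate 3, that against replicate 1 was 0.70 and 0.58. The study chose this list with these samples among others, and it is therefore no independent list. Its genes had lower mRNA and protein after CELF1 depletion, and the study counted only part of them as bound by CELF1. The others, RPA3 among them, it classed as secondary targets. RPA3, of the single-strand DNA binding complex RPA, was the called one (−0.96, −2.43 and −1.92, adjusted p-value 0.037 by edgeR). CCNB1, the mitotic cyclin B1, had −1.16, −2.07 and −2.0, whereas UBE2C, the ubiquitin-conjugating enzyme of mitotic exit, had 2.01, 2.57 and 2.88, and AURKB −0.07, 0.06 and 0.64. BIRC5, which encodes survivin, had 0.89 in SK-Mel-103 and 0.78 and 1.49 in UACC-62. DEK, a chromatin protein, had −0.26, −1.16 and −0.49. For both genes the UACC-62 replicates were farther apart than SK-Mel-103 was from the nearer replicate, and the line difference was not detectable.

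CELF1 mRNA itself was among the most enriched transcripts of every sample. It had 32535, 35634 and 31821 IP reads and 4016, 3129 and 2048 input reads over 353 bins, and values of 2.64 in SK-Mel-103 and 3.35 and 3.26 in UACC-62. SK-Mel-103 lay below both replicates by 0.71 and 0.62, which did not pass the test (adjusted p-value 0.36, edgeR). The other RNA-binding proteins of the CELF, MBNL, ELAV and AU-rich groups had medians of 0.26 and 0.18 over 26 genes, and relative medians of −0.25 and −0.11. Of the 26, 15 lay above both replicates (57.7%, beside 65.3% of all genes) and 5 below both. IGF2BP3, which stabilizes mRNAs, had −1.47, −2.47 and −2.58, and RBFOX2, a splicing factor, had 0.43, 0.61 and 0.84. Of the mRNA decay factors, LSM1 had −1.13, −2.26 and −2.02 and CNOT6, a deadenylase of the CCR4-NOT complex, 2.52, 3.30 and 3.17. The median over the 18 decay genes was 0.46 and 0.14 (relative −0.06 and −0.15).

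The lines differ in which gene of the RAS to ERK pathway is mutated, and 19 genes of the pathway were kept, with medians of 0.49 and 0.20, near those of all genes, and relative medians of −0.03 and −0.09. Of these, 11 were above both replicates (57.9%, beside 65.3% of all genes), 4 below both, and 1 passed 2-fold in both differences (5.26%, beside 2.35%). That was DUSP4, a single gene, which gives no result about the pathway as a whole. DUSP4, a phosphatase that shuts off ERK and is itself induced by the pathway, had 235, 556 and 830 IP reads and 166, 1360 and 978 input reads, which gave 0.13 in SK-Mel-103 and −1.45 and −0.93 in UACC-62 (adjusted p-value 0.041, edgeR). SPRY2, another feedback inhibitor, had 0.36, −0.38 and −0.70, whereas RASA2, a GTPase-activating protein of RAS, had 0.61, 1.85 and 1.05 and SPRED1 had 2.04, 2.61 and 2.60. NRAS had −1.0 in SK-Mel-103 and −1.63 and −0.86 in UACC-62 and thus lay between the replicates. BRAF did not reach the input minimum.

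Only 4 melanocyte genes were kept, with medians of 0.65 and 0.48 and relative medians of 0.13 and 0.19. SOX10 had −0.80, −1.44 and −1.29, MYO5A, a motor of pigment granules, had −0.29, −0.95 and −0.96, and RAB38, of their transport, had −0.52, −1.59 and −1.0. SK-Mel-103 was above both replicates in these 3 genes and below both in LEF1, a Wnt transcription factor (0.61, 1.41 and 0.82). None was called. Among genes of dedifferentiation and epithelial-mesenchymal transition, with medians of 0.11 and 0.16 over 12 genes (relative −0.41 and −0.14), VIM (vimentin) had −1.05, −1.96 and −1.93 and CDH2 (N-cadherin) −1.25, −0.73 and −0.84. LAMC1, a laminin chain, had 0.33, −0.76 and −1.04, and was the only one of 9 integrin, laminin and collagen genes past 2-fold in both differences, whereas the integrin ITGB8 had 0.49, 1.61 and 1.30.

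The region of the transcript changed the level but little of the median line difference. Over 1400 genes with enough input in both regions, log2 IP over input was higher in the 3′ UTR than in the coding region, with a median excess of 0.55 in SK-Mel-103, 0.51 in UACC-62 replicate 1 and 0.47 in replicate 3, and with 79.6, 79.0 and 78.4% of the genes above 0. The median line difference was 0.55 and 0.28 in 3′ UTR bins and 0.63 and 0.29 in coding bins of these genes. The mean line difference of a gene in one region correlated with that in the other at an r of 0.726 across genes, which share libraries and totals. Single genes did differ between the regions. The mean line difference in the 3′ UTR minus that in the coding region had an SD of 0.35 over genes. In the 3′ UTR and coding bins themselves the SD was 0.48 and 0.46. Coding bins alone also had the narrower range in SK-Mel-103, with an SD of 0.67 against 0.93 and 0.98.

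Transcripts with longer 3′ UTRs and more GREs were better recovered in both lines. Of 4 classes of equal size by length, the one with the shortest 3′ UTRs (up to 1285 nt, all annotated transcripts of a gene merged) had a median of −1.17 in SK-Mel-103 and −1.81 in the UACC-62 mean, and the one with the longest (from 4739 nt) −0.08 and −0.29. Counted without overlap, genes without a GRE had −1.22 and −1.85, and genes with 6 or more had 0.40 and 0.27. The median line difference declined from 0.73 to 0.17 against replicate 1 and from 0.49 to 0.02 against replicate 3 between these GRE classes. Where the lines differed most depended on the scaling, since with each sample centred on its median the line differences were 0.21 and 0.19 without a GRE and −0.35 and −0.27 with 6 or more. By GC content of the 3′ UTR the 4 classes ranged from 0.47 to 0.52 and from 0.20 to 0.29. Once each sample was divided by its SD, the medians of all length, GC and GRE classes lay between −0.05 and 0.07.

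**Figure D5:**
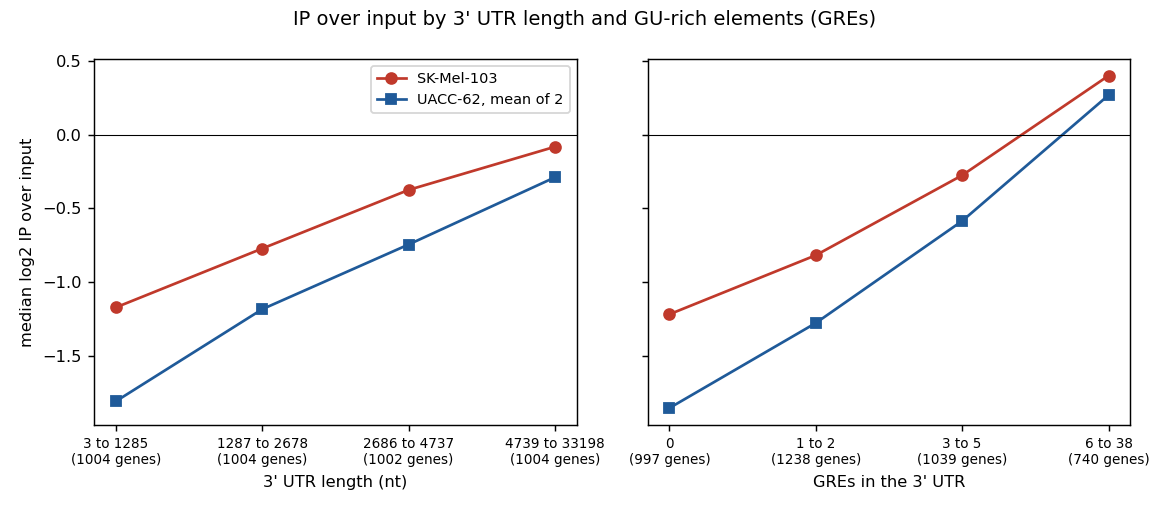
Median log2 IP over input in SK-Mel-103 and in the mean of the UACC-62 replicates by 3′ UTR length (left) and number of GREs in the 3′ UTR (right), with the genes of each class in parentheses. From no GRE to 6 or more the medians go from −1.22 to 0.40 in SK-Mel-103 and from −1.85 to 0.27 in UACC-62.

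The line difference was higher for transcripts with more input reads per bin. From the lowest to the highest of 4 classes of input level its median was 0.02, 0.43, 0.57 and 0.83 against UACC-62 replicate 1 and −0.11, 0.22, 0.37 and 0.48 against replicate 3. The UACC-62 mean value declined over the same classes, with medians of 0.66, −0.94, −1.59 and −2.08. After the scaling by SD, the lowest and highest of these classes had −0.07 and 0.10 against replicate 1, and −0.04 and 0.03 against replicate 3. The line difference also varied with the change in input between the lines. Of 4 classes of genes, the one with the most reduced input share in SK-Mel-103 had a median line difference of 0.73 and 0.48, and the one with the most increased share 0.25 and 0.06. The input share enters the line difference with the opposite sign, so that sampling error alone moves both. After the scaling by SD these 2 classes of input change had medians of 0.18 and 0.17 against −0.14 for both replicates.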

How the data were processed

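RIP-Seq lists of 3 IP samples were analysed, with groups taken from the labels. The authors aligned 40-nt reads with TopHat to GRCh37 and called 20 bp bins with Piranha against the input. The submitters' processing notes name TopHat2 2.0.4, Bowtie 0.12.7 and SAMtools 0.1.16, whereas the methods of the paper give another version for each of these tools. In the deposited lists, IP read counts are whole numbers for passing bins, without normalization. A p-value per bin from Piranha was deposited beside them, and the deposited ratio used as covariate gives the input relative to a fixed number of reads. Division by its smallest step returned the input reads, with 0.01 standing for none, and lay within 0.03 of a whole number. Transcripts were taken on the strand opposite to the one listed, because first-strand reads are antisense. Exons came from GENCODE version 44 on GRCh37, and bins in exons of several genes were left out (1404 of 282942 common bins, beside 20853 outside exons). Mitochondrial positions in the files may differ from the annotation by a few bases.

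The count test was the quasi-likelihood test of edgeR 4.0.16 on IP and input counts (6 columns, sample as block, file totals as library sizes, 1 residual degree of freedom) with Benjamini-Hochberg adjustment, in R 4.3.3. Tested on simulated data of 4120 genes, it called 23% of 100 genes changed by 1 and 67% of 100 genes changed by 1.5 (log2), with 6 false calls. The simulation kept the input of each sample but gave every IP the mean UACC-62 enrichment of the gene, with a common dispersion of 0.021. It held neither the median offset nor the narrower range of SK-Mel-103, so its false calls cannot be carried over to these data. DESeq2 1.42.0 and limma 3.58.1 were alternatives, as were other scalings, minima, bin filters, regions, strand and left-out replicates. Genes named were the 10 protein-coding genes per direction with the largest smaller line difference, the 5 with the largest replicate difference, the highest and lowest 2 of each of 27 lists, and CELF1, DEK, BIRC5, NRAS and melanocyte genes. Not all of these are described, and some results are not reported here. Members and lists were chosen with earlier results of these data known.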

Additional observations from a re-analysis of the deposited data

Results flagged for a closer look

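The interaction test of edgeR found IP over input to differ between the lines for 98 genes, with the limits given above for the number of calls. In this test the single SK-Mel-103 sample has no replicate of its own. For those of the 118 genes named by the rules that were among them, the line difference against the UACC-62 mean (log2) is given here. Many of the 118 were named for large line differences in the same data, so calls among them were likely from the start. None of the genes listed here was called with totals over the common exonic bins, with DESeq2 or without the replicate block. Of the respiratory chain and mitochondrial metabolism, NDUFA6 had 2.0, NDUFB6 1.75, MRPS33 1.67 and PCCB 1.60. ENO2 of glycolysis had 1.83. The histone genes H4C1 and H3C4 had 1.74 and 1.46. Membrane and signalling genes comprised SNX18 with 1.49, MYO10 with 1.47, FZD6 with 1.45, AHR with 1.43, DUSP4 with 1.32 and RAB3GAP2 with 1.19. Of the translation, splicing, replication and proteasome genes, RPS16 had 1.39, RPL26L1 1.38, SF3B6 1.36, RPA3 1.22, PSME2 1.2 and EIF2B2 1.07. Below UACC-62 were ASTN2 at −1.64 and SCD5 at −1.43.

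Also among the genes named and called were 2 short non-coding loci, whose UACC-62 replicates differed by more than any others. The processed pseudogene ENSG00000225840 had 3.56 on average, but with values of 4.60 in SK-Mel-103 and of 3.49 and −1.40 in UACC-62, where its input reads numbered 262 and 8816. RN7SKP48, a copy of the 7SK RNA gene counted over 1 bin, had −1.41 on average, from −4.44 in SK-Mel-103 and −0.73 and −5.34 in UACC-62. Its direction thus rests on UACC-62 replicate 1.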

How the results depend on the processing

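The number of edgeR calls (94 genes higher and 4 lower in SK-Mel-103) changed with nearly every alternative. In the same order it was 50 and 75 with TMM factors, 5 and 16 with centred medians, 181 and 14 at 30 input reads, 0 and 0 at 300 (447 at an unadjusted p-value under 0.05), 11 and 2 in bins with more than 30 IP reads, 153 and 7 in bins with a p-value under 0.01, 0 and 0 in coding bins (173 unadjusted), 1 and 11 with the listed strand (293 genes tested), 1 and 0 with DESeq2 and 32 and 4 with limma. With all exonic bins of each file 12 genes were lower. Without the replicate block, which in this fit is the pairing of an IP with its own input, 0 and 0 genes were called, with 414 at an unadjusted p-value under 0.05. Totals over the common exonic bins gave 0 and 0 (1139 unadjusted). The prior degrees of freedom estimated by edgeR were infinite in the fit reported, 10.9 with those totals and 7.33 without the block. Otherwise the cause was not tested.

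Genes at least 2-fold apart against both replicates (97 higher, 9 lower) numbered 20 and 43 with TMM factors, 13 and 63 with centred medians, 210 and 19 at 30 input reads, 28 and 5 at 300, 46 and 0 in coding bins, 10 and 15 with the listed strand, and 6 and 15 after division by the SD, an alternative added after seeing the data. There were 48 higher in bins with more than 30 IP reads and 15 lower with all exonic bins. Leaving out UACC-62 replicate 1 gave 152 higher and 33 lower genes, and leaving out replicate 3 gave 533 and 32. The medians of the line differences (0.49 and 0.25) were 0.083 and 0.048 with TMM factors, −0.026 and −0.042 with centred medians, and −0.0010 and −0.0051 after division by the SD.

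The line difference of RN7SKP48 was between −3.71 and 0.89 when either UACC-62 replicate was left out, the latter without replicate 1. Over 1902 values of the 118 named genes under the alternatives, 1826 kept their direction. Many of these genes were named for large line differences in the same data. Some alternatives also hardly change a value, as with 1 read added, where all 118 kept their direction. The count is therefore no independent measure of how stable the differences are. Of 24 list medians, 15 kept their direction with TMM factors, 14 with centred medians and 14 after division by the SD, whereas all 24 did with 1 read added or with totals over the common exonic bins. No count test was run without a UACC-62 replicate, where no residual degrees of freedom remain, nor with 1 read added or after division by the SD, which apply to log values only. Depth limits the genes near 100 input reads, such as NDUFA6 and PCCB, whose counting errors were about 0.26 and 0.30.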

Other observations

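Of the 98 genes kept that are not protein-coding, those annotated as small nuclear RNA (snRNA) were higher in SK-Mel-103. All 7 snRNA genes lay above both UACC-62 replicates, beside 65.3% of all genes. Their median difference was 1.38 against the UACC-62 mean. RNU6ATAC, of the minor spliceosome, had 195 reads in the IP and 147 in the input of SK-Mel-103 and a value of 0.03, against −2.22 and −1.46 in UACC-62. RNU5D-1 had 0.77, −0.76 and −0.68, RNU5B-1 had 0.38, −1.35 and −0.66, and RNU6-48P had 0.66, −1.25 and −1.25. These genes belong to families of near-identical copies, and the reads of single copies are uncertain. RMRP, the RNA of the ribonuclease MRP, had 0.27 in SK-Mel-103 and −1.12 and −1.33 in UACC-62.

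NEAT1, the lncRNA of paraspeckles, was lower in SK-Mel-103. It had 1705, 5557 and 3086 IP reads and 892, 1355 and 512 input reads over 204 bins, and values of 0.56 in SK-Mel-103 and 1.88 and 1.89 in UACC-62, with an adjusted p-value of 0.058 by edgeR. SNHG16, a snoRNA host gene, had 0.95, 1.46 and 2.01, whereas ZFAS1, another, had −1.06, −2.41 and −1.94. Over 45 lncRNAs the median difference was 0.12, with 16 above both replicates and 11 below both, beside 65.3 and 14.6% of all genes. Of the snoRNA and scaRNA genes, SCARNA7 and SNORA73B had SK-Mel-103 values of −0.36 and 0.66 between those of the UACC-62 replicates, which lay at −1.12 and 0.96 and at −0.20 and 1.76.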
